A study of Mus musculus with 6 samples.

Results

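The transcription factors of salivary epithelium Bhlha15, Creb3l1, Spdef, Sox9, Sox10, Sox2, Etv1, Foxc1 and Barx2 were read by symbol from the deposited table of raw counts per gene. All 9 were found among its 43280 rows, and all 9 were among the 18606 rows that reached 10 counts over the 6 libraries together and were tested. The libraries were made from submandibular glands of female mice, 3 labelled WT (wildtype) and 3 labelled DKO for the loss of both Hs3st3a1 and Hs3st3b1. The study's methods describe adult mice on a C57BL/6 background, with a frameshift in the first exon of Hs3st3a1 made by zinc finger nucleases and a LacZ cassette in Hs3st3b1. Both alleles are carried in the germline and so in every cell type of the gland, no treatment is labelled in either group, and neither the age in weeks nor the founder line of an animal is given in the sources used here. Both genes encode sulfotransferases that add a 3-O-sulfate group to heparan sulfate, a sugar chain that binds growth factors at the cell surface and in the basement membrane. Libraries are numbered 1, 4 and 5 within each group, and the sources say that 3 glands were used per group but not whether each came from a different animal.

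Saliva is made in acini and led away by ducts, and contractile myoepithelial cells wrap the acini. Acini arise from progenitors that express Sox9, Sox10 and, early, Sox2, all of them HMG box factors, and Sox10 is also made by Schwann cells of the gland's nerves. Secretory cells are built up by factors such as Bhlha15 (also called Mist1), a basic helix-loop-helix factor for the size and order of the secretory apparatus, Spdef, an ETS factor of mucous and goblet cells, and Creb3l1, a factor held in the endoplasmic reticulum membrane until it is cut and released to the nucleus. Etv1 belongs to the PEA3 group of ETS factors, which fibroblast growth factor (FGF) signalling commonly induces, and Foxc1 and Barx2 are developmental factors of the forkhead and homeobox families.

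Several of the 9 belong to families with near relatives in the genome, so the coding sequence that a member shares with a relative was looked for first, since reads that lie wholly in such a stretch cannot be told apart. The read length is not given in the sources used here. The pairs shown are the 2 with the longest shared runs of all pairs compared, and the closest pairs of the 2 members that were called between the groups. In each line the capitals mark the identical run, and the lower case letters are the 20 bases on either side, read 5′ to 3′ on the coding strand of GRCm38, and all runs lie in coding exons of the GENCODE M21 annotation.
Sox9, chr11:112782831-112782874, plus strand: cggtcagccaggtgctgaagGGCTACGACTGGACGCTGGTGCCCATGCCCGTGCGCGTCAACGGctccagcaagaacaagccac
Sox10, chr15:79163430-79163473, minus strand: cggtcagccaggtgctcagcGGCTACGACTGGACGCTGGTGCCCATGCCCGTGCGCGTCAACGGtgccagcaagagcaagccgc
Foxc1, chr13:31807646-31807698, plus strand: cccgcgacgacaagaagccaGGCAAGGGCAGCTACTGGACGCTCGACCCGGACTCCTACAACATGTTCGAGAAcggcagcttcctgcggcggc
Foxc2, chr8:121117032-121117084, plus strand: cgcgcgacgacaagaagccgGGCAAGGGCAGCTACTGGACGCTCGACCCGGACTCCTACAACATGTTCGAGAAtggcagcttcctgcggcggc
Creb3l1, chr2:91991228-91991244, minus strand: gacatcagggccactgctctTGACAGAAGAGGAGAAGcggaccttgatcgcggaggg
Creb3l2, chr6:37355745-37355761, minus strand: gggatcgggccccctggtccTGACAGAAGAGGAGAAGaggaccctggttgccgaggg
Barx2, chr9:31854117-31854133, minus strand: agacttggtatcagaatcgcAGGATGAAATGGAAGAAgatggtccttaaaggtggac
Barx1, chr13:48665465-48665481, plus strand: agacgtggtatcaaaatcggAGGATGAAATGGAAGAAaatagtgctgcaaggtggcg
Sox9 and Sox10 shared a run of 44 bases, Foxc1 and Foxc2 one of 53, and Creb3l1 with Creb3l2 and Barx2 with Barx1 one of 17 each. Even the longest of these is a small piece of its gene, whose exons cover 5844 bases for Foxc1. Foxc2 had 9 counts in all 6 libraries together, while Sox9 and Sox10 were both well counted, with 728 to 1111 and 1034 to 1346 counts per library, so reads within their shared run could have gone to either. In that annotation Creb3l1 lies on chromosome 2 from 91982328 to 92024502 (minus strand), Barx2 on 9 from 31846044 to 31913462 (minus), Bhlha15 on 5 from 144190286 to 144194441 (plus), Spdef on 17 from 27714352 to 27728955 (minus) and Etv1 on 12 from 38779380 to 38870484 (plus). Sox9 lies on chromosome 11 from 112782224 to 112787760 (plus), Sox10 on 15 from 79154908 to 79165240 (minus), Sox2 on 3 from 34650405 to 34652461 (plus) and Foxc1 on 13 from 31806633 to 31812476 (plus). No exon of another annotated gene overlapped an exon of any of the 9. Sox2ot overlaps Sox2 on the same strand, with 0 bases of exon in common. Gm31497 lies antisense to Barx2, also with 0 bases of exon in common, and reads of the 2 strands could not be separated in these unstranded libraries.

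Before the comparison, the libraries were checked. Total counts ranged from 23674258 to 29611975, and the most abundant row, Spt1, held 34.9 to 39.7% of them. The targeted genes did not separate the groups, since Hs3st3a1 had 11 to 15 counts under the WT label and 8 to 13 under the DKO label (adjusted p = 0.947 by DESeq2), and Hs3st3b1 had 173 to 261 and 120 to 255 (adjusted p = 0.976 by DESeq2). By quantitative PCR the paper reports no expression of either gene in adult DKO glands of both sexes, which differs from these counts. The reason for this difference was not tested. A count per gene does not show a frameshift or a cassette, so every direction below rests on the labels. The library labelled WT 5 stood apart. It had 55670 normalized counts of Muc19, the mucin of the sublingual gland, 24740 of Amy1, the salivary amylase, and 78930 of Bpifa2, the parotid secretory protein, against 28.2 to 119, 131 to 256 and 73.2 to 104 in the libraries other than WT 5 and DKO 1. The library labelled DKO 1 came next, with 3706 of Muc19 and 3446 of Bpifa2 but 225 of Amy1. T cell genes were highest in WT 1 and WT 5, where Cd8a had 37.6 and 22.4 normalized counts against 9.78 in WT 4 and 0 in each library labelled DKO. By marker list, 2 of 3 T cell, 1 of 4 plasma cell, 2 of 6 fibroblast and 1 of 4 basal cell genes fell, and 0 of 4 endothelial and 0 of 4 ionocyte and duct genes passed the test. Fold changes and calls were therefore also computed without each library in turn and without WT 5 and DKO 1 together, the last choice having been made after these values were seen.

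Over the 9 factors, 2 were called higher in the libraries labelled DKO, Creb3l1 and Barx2, and 0 were called lower, at a DESeq2 adjusted p under 0.05. The same rule called 2.9% of all rows tested, 1.02% higher and 1.88% lower. The edgeR quasi-likelihood test and limma-voom called 0 of the 9 after adjustment, and called 0.0537% and 0.0376% of all rows. At an unadjusted p under 0.05, each of the 3 tools picked 4 of the 9, all 4 higher in DKO, where DESeq2 picked 4.92%, edgeR 6.32% and limma-voom 6.09% of all rows in that direction. Those 4 were Creb3l1, Barx2, Etv1 and Spdef with every tool. In 5 of the 9, these 4 and Bhlha15, every library labelled DKO lay above every library labelled WT, a pattern that 9.85% of all rows showed. The median log2 fold change was 0.17 over the 9 and 0.0011 over all rows.

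**Figure D1:**
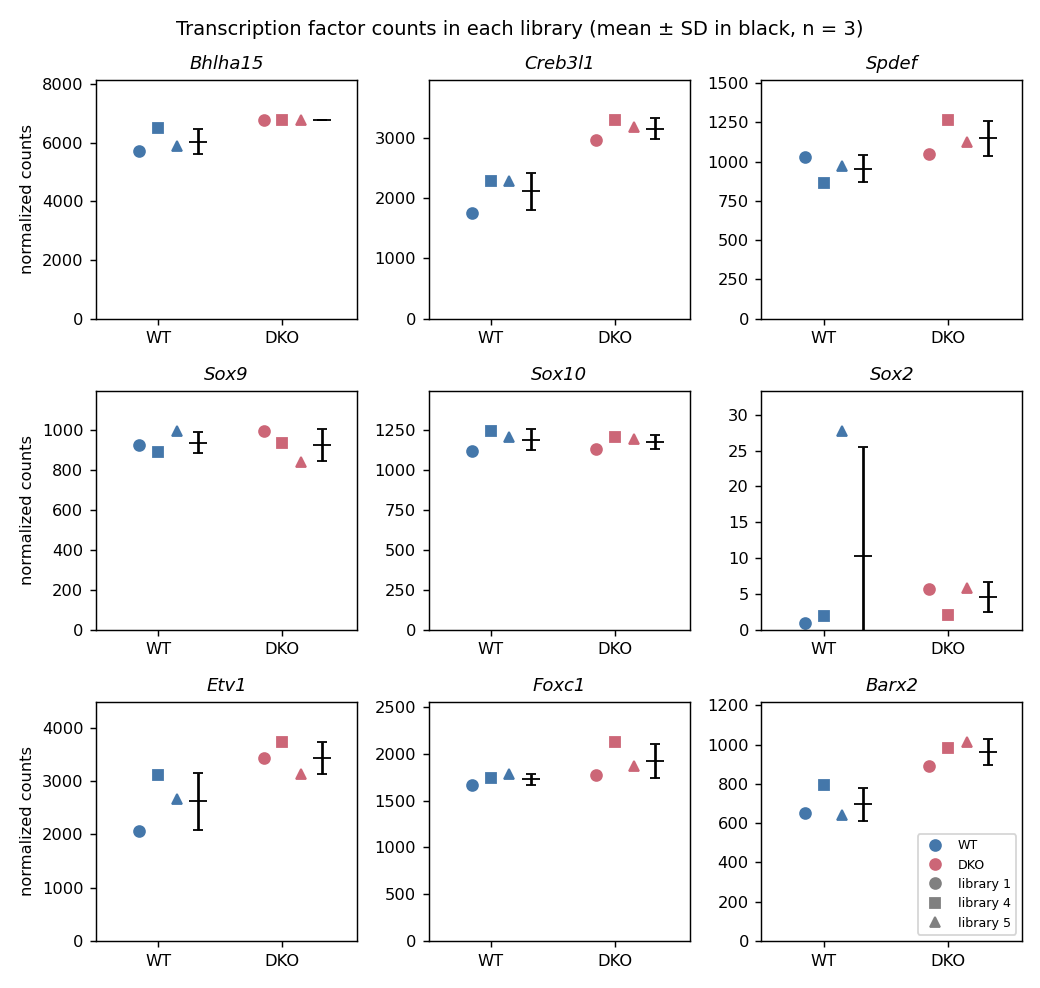
Normalized counts (vertical axis, from 0) of each factor in the 3 libraries labelled WT (blue) and the 3 labelled DKO (red), with the library number given by the symbol and the mean ± SD in black; the lower bar of Sox2 in WT runs below 0 and is cut there. Creb3l1 and Barx2 were the 2 factors called, Sox9 and Sox10 overlapped, and the WT spread of Sox2 was that of 1 library at 27.8.

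Creb3l1 showed the clearest difference. Its normalized counts were 1753, 2292 and 2294 in WT 1, 4 and 5, and 2968, 3306 and 3186 in DKO 1, 4 and 5. The groups lay apart by 674 normalized counts, and WT 1 was the lowest library. The means were 2113 ± 312 and 3153 ± 171 (SD, n = 3), a fold of 1.49 and a log2 fold change of 0.58 with a 95% interval of 0.34 to 0.82 (SE 0.12, DESeq2 adjusted p = 0.000503). The edgeR and limma-voom log2 fold changes were 0.58 and 0.59 with adjusted p of 0.140 and 0.143, so the size was close to that of DESeq2 while the call was lost. Scaling by total counts gave a smaller log2 fold change, 0.34 (DESeq2 adjusted p = 0.0330). Leaving out any one library kept the DESeq2 call, with log2 fold changes of 0.46 to 0.64 and adjusted p of at most 0.0230. Without WT 5 it was 0.64, and without WT 5 and DKO 1 it was 0.68 (DESeq2 adjusted p = 0.00715).

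Creb3l1 is one of 10 listed factors of the CREB3 family and of the endoplasmic reticulum stress response. Of the 9 of them tested, 2 rose and 0 fell, against 1.02% and 1.88% of all rows. All 9 had a positive log2 fold change, with a median of 0.17, where 50.2% of all rows were positive. Creb3l4, a membrane-held relative made in secretory epithelia, was the other one called. Its normalized counts were 400, 293 and 361 in WT 1, 4 and 5 and 483, 614 and 558 in DKO 1, 4 and 5 (log2 fold change 0.65 ± 0.16 SE, DESeq2 adjusted p = 0.00427). No library of one group reached into the other. Its call was lost without WT 5, DKO 4 or DKO 5, without WT 5 and DKO 1 together, and with total counts as size factors. For Creb3l4 edgeR gave an adjusted p of 0.133. Creb3l2, another membrane-held relative that shares the 17-base run shown above, had 1793 to 2111 normalized counts in WT and 1693 to 2546 in DKO (log2 fold change 0.13, DESeq2 adjusted p = 0.812). The groups overlapped at both ends. Xbp1, the spliced effector of the unfolded protein response and the most abundant of the list, had a log2 fold change of 0.16 (DESeq2 adjusted p = 0.713), and Atf4 and Atf6, which serve the other branches of that response, had 0.33 and 0.09 (DESeq2 adjusted p = 0.267 and 0.855). Atf4 passed without DKO 1 (log2 fold change 0.50, adjusted p = 0.000826) and without WT 5 and DKO 1 (0.54, adjusted p = 0.0235), and edgeR and limma-voom called 0 of the list. Scaling by total counts turned the median of this list negative, at -0.07, and put that of all rows at -0.23.

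Bhlha15 was the most abundant of the 9 per length. Its normalized counts were 5714, 6519 and 5899 in WT 1, 4 and 5 and 6782, 6796 and 6767 in the libraries labelled DKO. The 3 libraries labelled DKO lay within 0.216% of their mean (coefficient of variation), closer than the SD of 84.3 that counting error alone gives, and all 3 lay above the WT range. The means were 6044 ± 422 and 6782 ± 14.7 (SD, n = 3), a log2 fold change of 0.17 with an interval of -0.0039 to 0.34 (DESeq2 adjusted p = 0.382). It was not called under any of 15 alternatives, and with total counts as size factors the sign turned, at -0.07.

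Of 6 genes listed as driven by Bhlha15 in secretory cells, 5 were tested, with a median of 0.40 over the 5. Against 1.02% of all rows called higher, 4 of the 5 rose. These were Rab3d and Rab26, small GTPases of secretory granules, with log2 fold changes of 0.39 and 0.62 (DESeq2 adjusted p = 0.0163 and 0.0317), Gjb1, the gap junction protein connexin 32 of acini, with 0.40 (adjusted p = 0.0271), and Copz2, a coat protein subunit, with 0.40 (adjusted p = 0.0462). For Rab3d the normalized counts were 2693, 2947 and 2831 in WT 1, 4 and 5 and 3282, 4094 and 3695 in DKO 1, 4 and 5. Each of the 4 called genes was without overlap, a pattern that 9.85% of all rows showed in that direction. The fifth, Atp2c2, a calcium pump of the secretory pathway, reached 104 normalized counts in DKO 5 and 2.97 to 17.6 in the other libraries, so its log2 fold change of 1.85 rested on 1 library (DESeq2 adjusted p = 0.239). The number called was 0 without WT 1, WT 5, DKO 4 or DKO 5, without WT 5 and DKO 1 together, with total counts as size factors and with edgeR or limma-voom.

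Spdef stood at 1031, 861 and 973 normalized counts in WT 1, 4 and 5 and 1051, 1268 and 1123 in the libraries labelled DKO. DKO 1 lay only 20.1 above WT 1, so the groups touched without overlapping. The means were 955 ± 86.6 and 1147 ± 110 (SD, n = 3), a log2 fold change of 0.26 with an interval of 0.03 to 0.50 (SE 0.12, DESeq2 adjusted p = 0.270, edgeR 0.274). Without WT 5 and DKO 1 it was 0.34, and no alternative called it.

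Of 10 genes listed for the Spdef programme of mucous cells, 5 were tested. Against 1.02% of all rows called higher, 3 of the 5 rose. Creb3l1 and Creb3l4 are 2 of them and were described above, so the list is not separate from the CREB3 list. The other was Agr2, a disulfide isomerase needed for mucin folding, whose normalized counts were 224, 347 and 243 in WT 1, 4 and 5 and 539, 654 and 565 in DKO 1, 4 and 5. Its means of 271 ± 66.6 and 586 ± 60.5 (SD, n = 3) gave a log2 fold change of 1.11 with an SE of 0.18 (adjusted p = 3.64e-07 with DESeq2 and 0.0743 with edgeR), the highest of the list. With edgeR or limma-voom 0 of the list were called. Foxa1, a forkhead factor of glandular epithelia, had -0.11 (DESeq2 adjusted p = 0.854). Foxa3, Ern2, Tff2 and Muc5b of this list had 0 counts in all 6 libraries and were not tested.

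**Figure D2:**
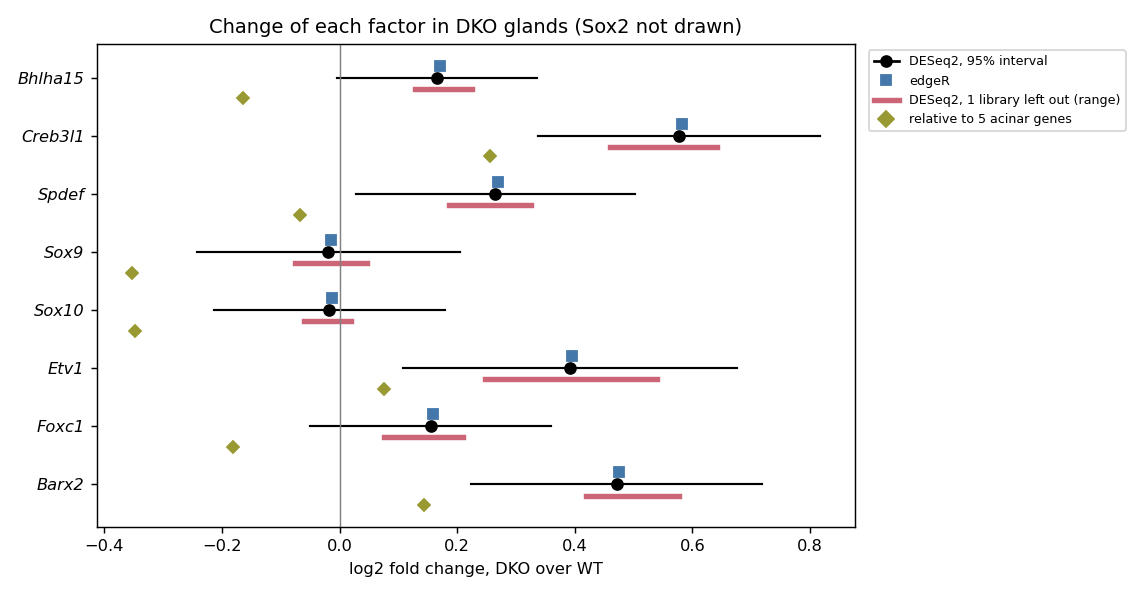
Log2 fold change, DKO over WT (horizontal axis), for 8 of the factors, with the DESeq2 estimate and its 95% interval in black, the edgeR estimate as a blue square, the range over the 6 fits that each leave out 1 library in red, and the difference of the log2 ratio to 5 acinar genes as an olive diamond; Sox2 is not drawn because its estimate ran from -1.72 to 1.62 when 1 library was left out. The intervals of Creb3l1, Barx2, Etv1 and Spdef lie above 0, and of these Creb3l1 and Barx2 pass after adjustment. Those of Sox9 and Sox10 are centred on 0. Every diamond lies to the left of its estimate, since the same 0.33 rise of the acinar genes is taken from each.

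Sox9 and Sox10, the factors most tied to salivary progenitors, had nearly equal mean normalized counts in both groups under median-of-ratios scaling. Sox9 stood at 926, 889 and 995 normalized counts in WT 1, 4 and 5 and 996, 937 and 839 in DKO 1, 4 and 5. The highest and the lowest library were both labelled DKO. The means were 937 ± 53.7 and 924 ± 79.2 (SD, n = 3), a log2 fold change of -0.02 with an interval of -0.24 to 0.20 (DESeq2 adjusted p = 0.978). Sox10 stood at 1118, 1246 and 1206 normalized counts against 1129, 1207 and 1192. All 3 libraries labelled DKO fell inside the WT range. The means were 1190 ± 65.4 and 1176 ± 41.5 (SD, n = 3), a log2 fold change of -0.02 with an interval of -0.21 to 0.18 (DESeq2 adjusted p = 0.977). Under this scaling, these intervals leave room for a change of about the size fitted for Bhlha15 and do not reach the estimates of Creb3l1 or Barx2. Scaling by total counts put Sox9 at -0.253 and Sox10 at -0.252 (DESeq2 adjusted p = 0.255 and 0.114), beyond the lower ends of those intervals. The median of all rows was then -0.23.

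Sox10 is shared by acinar cells, myoepithelial cells and Schwann cells, whose markers moved differently. All 5 myoepithelial genes tested (Acta2, Cnn1, Myh11, Tagln and Mylk) fell, with log2 fold changes of -0.99 to -0.74, and their summed level was 9521 to 10390 normalized counts in WT and 5128 to 6785 in DKO. Of the Schwann cell genes, Mbp, a myelin protein, and Cdh19, a cadherin, had log2 fold changes of 0.02 and 0.04 (DESeq2 adjusted p = 0.971 and 0.976). In bulk RNA, fewer cells of a type and less RNA per cell cannot be told apart, and which of these cells the Sox10 counts came from was not tested.

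Sox2 lay near the floor of detection. Its raw counts were 1, 2 and 31 in WT 1, 4 and 5 and 6, 2 and 5 in DKO 1, 4 and 5. WT 5 alone held most of them. On the normalized scale WT 5 had 27.8 and the other 5 libraries 0.990 to 5.76, and the log2 fold change of -1.19 had an interval of -3.42 to 1.04 (DESeq2 adjusted p = 0.762). Without WT 5 the sign turned, to 1.62, with no adjusted p given, and with limma-voom the log2 fold change was -0.06. Over the alternatives that gave one, the adjusted p ran from 0.639 to 0.986. The library with the Sox2 counts is the one that stood apart by Muc19, Amy1 and Bpifa2, and the part of that in the Sox2 level was not tested. A difference in Sox2 between the groups was not detectable at this depth.

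**Figure D3:**
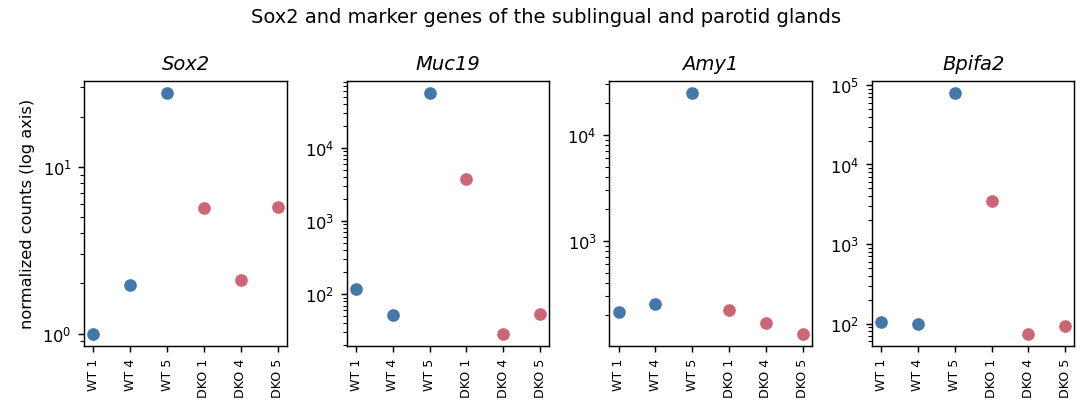
Normalized counts on log axes of Sox2 and of Muc19, Amy1 and Bpifa2, genes of the sublingual and parotid glands, in each library labelled WT (blue) and DKO (red). WT 5 is the highest library in all 4 panels, with 27.8 for Sox2 and 55670 for Muc19, and DKO 1 is second for Muc19 and Bpifa2. For Sox2, DKO 1 and DKO 5 nearly tie, at 5.69 and 5.76 (6 and 5 raw counts).

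Of 19 SOX genes listed, 13 were tested, 0 were called, and their median log2 fold change was 0.02. Those with the highest counts after Sox10 and Sox9 were Sox13, with 357 to 649 normalized counts in WT and 442 to 579 in DKO, and Sox4, a factor of many progenitors, with 357 to 392 and 350 to 390. The log2 fold changes of Sox13 and Sox4 were 0.07 and 0.02 (DESeq2 adjusted p = 0.949 and 0.985). Sox8, the third member of the group that Sox9 and Sox10 form, had 3.46 to 14.3 normalized counts in all libraries. Sox1 and Sox3, the close relatives of Sox2, had 0 counts.

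Etv1 stood at 2064, 3119 and 2662 normalized counts in WT 1, 4 and 5 and 3430, 3734 and 3129 in DKO 1, 4 and 5. WT 4 and DKO 5 nearly met, and WT 1 lay well below the rest. The means were 2615 ± 529 and 3431 ± 302 (SD, n = 3), a fold of 1.31 and a log2 fold change of 0.39 with an interval of 0.11 to 0.67 (SE 0.14, unadjusted p = 0.00673, DESeq2 adjusted p = 0.115, edgeR 0.273). It passed the threshold in 1 alternative, without WT 4, with 0.54 (DESeq2 adjusted p = 0.00880). Without WT 1 it was 0.25 (DESeq2 adjusted p = 0.600), and without WT 5 and DKO 1 it was 0.40 (adjusted p = 0.593).

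Etv1 was listed with its relatives and the feedback genes that FGF signalling induces. All 10 listed were tested, 0 passed with all libraries and 9 were positive, with a median of 0.19, where 50.2% of all rows were positive. Among the 9 positive genes, Etv4 was at 7.46e-05 and Spred2 at 0.01. Dusp6, the phosphatase that switches off ERK, came closest to passing. Its normalized counts were 1280, 894 and 1044 in WT 1, 4 and 5 and 1216, 1685 and 1468 in DKO 1, 4 and 5, and its log2 fold change was 0.44 (DESeq2 adjusted p = 0.0972). WT 1 lay above DKO 1, and without either of them Dusp6 passed, with 0.59 without WT 1 (DESeq2 adjusted p = 0.0469) and 0.56 without DKO 1 (adjusted p = 0.0277). Spred1, Spred2 and Spry2, inhibitors of the same pathway, had 0.16, 0.01 and 0.21 (DESeq2 adjusted p of 0.660 to 0.989). Etv5 had 287 normalized counts in DKO 4 and 96.8 to 124 in the other libraries, and Etv4 had 1.15 to 8.36 in all. Of 7 other ETS factors of epithelia, 0 passed, with a median of 0.08. Ehf, by far the most abundant of them, had 9022 to 10170 normalized counts in WT and 7933 to 8713 in DKO, and Ets1 had 413 to 614 and 355 to 378, without overlap in either gene (log2 fold changes -0.20 and -0.49, DESeq2 adjusted p = 0.247 and 0.0640). Both passed under total count scaling (-0.44 and -0.73, adjusted p = 0.00258 and 0.00495), and Ets1 passed without WT 4 (-0.62, adjusted p = 0.00394). Ets1 is also a factor of lymphocytes, whose genes were highest in WT 1 and WT 5, as given above, and their part in its values was not tested. Elf5 and Ets2 had 0.25 and 0.08 (DESeq2 adjusted p = 0.336 and 0.860).

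Barx2 stood at 650, 792 and 643 normalized counts in WT 1, 4 and 5 and 891, 986 and 1015 in DKO 1, 4 and 5. The groups lay 98.6 apart, and WT 4 was the library closest to DKO. The means were 695 ± 84.2 and 964 ± 64.7 (SD, n = 3), a fold of 1.39 and a log2 fold change of 0.47 with an interval of 0.22 to 0.72 (SE 0.13, DESeq2 adjusted p = 0.0120, edgeR 0.147, limma-voom 0.181). The size held at 0.42 to 0.58 when 1 library was left out, but the call did not. It was lost without WT 1, WT 5, DKO 4 or DKO 5 (DESeq2 adjusted p of 0.178, 0.196, 0.0824 and 0.155), without WT 5 and DKO 1 together (log2 fold change 0.47, adjusted p = 0.235), and under total count scaling (0.24, adjusted p = 0.197). Its relative Barx1, which shares the 17-base run shown above, had 13 to 19 counts per library.

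Foxc1 stood at 1663, 1745 and 1782 normalized counts in WT 1, 4 and 5 and 1779, 2130 and 1870 in DKO 1, 4 and 5. DKO 1 fell just under WT 5, so the groups overlapped. The means were 1730 ± 60.8 and 1926 ± 182 (SD, n = 3), a log2 fold change of 0.15 with an interval of -0.05 to 0.36 (DESeq2 adjusted p = 0.587), and with total counts as size factors the sign turned, to -0.09. Of the 4 listed FOXC and BARX genes 3 were tested, and Barx2 was the 1 called.

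Against 1.02% of all rows called higher and 1.88% lower, 0 of 12 other regulators listed for salivary progenitors rose and 3 fell. These were Kit, a receptor tyrosine kinase of acinar and duct progenitors, its ligand Kitl, and Krt14, a keratin of basal and myoepithelial cells. For Kit the normalized counts were 920, 778 and 803 in WT 1, 4 and 5 and 475, 567 and 581 in DKO 1, 4 and 5, with no overlap (log2 fold change -0.63, DESeq2 adjusted p = 4.32e-04, edgeR 0.108). Kitl and Krt14 had -0.83 and -0.56 (DESeq2 adjusted p = 0.00621 and 0.0113), and the number called fell from 3 to 1 without WT 1, WT 5, DKO 4 or DKO 5, and without WT 5 and DKO 1 together, and to 0 with edgeR or limma-voom. Trp63, the basal cell factor p63, had -0.60 (DESeq2 adjusted p = 0.0599), and it passed without DKO 1 (-0.86, adjusted p = 9.81e-05), without WT 5 and DKO 1 (-0.89, adjusted p = 0.0246) and under total count scaling (-0.83, adjusted p = 0.00851). Fgfr2, the FGF receptor of the epithelium, and Ascl3, a factor of duct progenitors and ionocytes, had 0.10 and -0.12 (DESeq2 adjusted p = 0.835 and 0.889). The basal keratin Krt5 had -0.01 (DESeq2 adjusted p = 0.997). The median of the list was 0.00015.

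**Figure D4:**
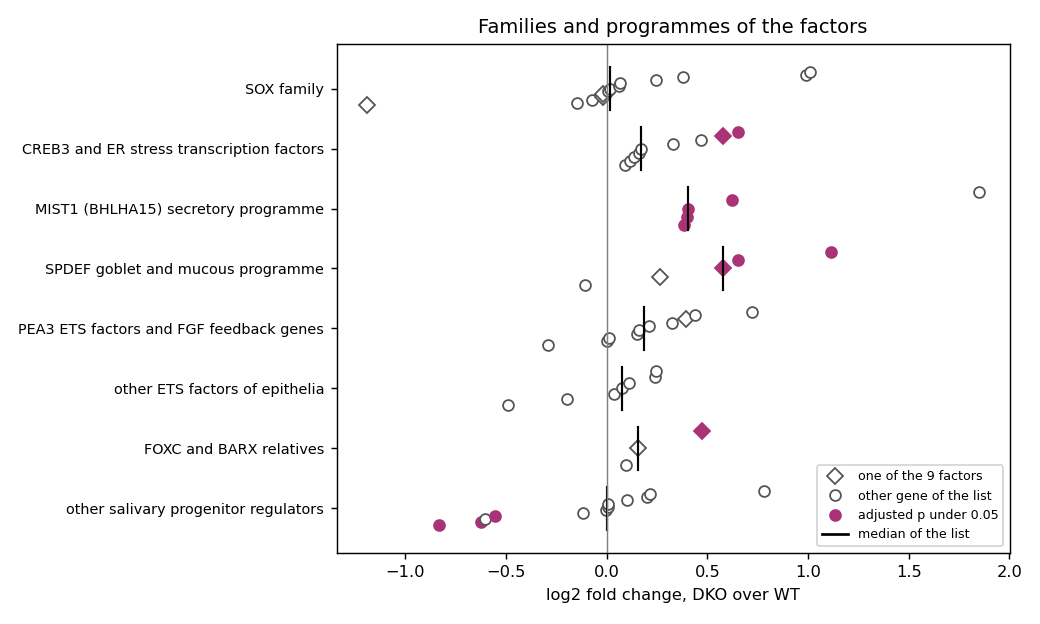
Log2 fold change (horizontal axis) of every tested gene of the 8 lists of relatives and programmes, with the 9 factors as diamonds, other genes as circles, filled symbols for a DESeq2 adjusted p under 0.05 and a black line at the median of each list; Creb3l1 and Creb3l4 stand in 2 lists. Filled symbols lie to the right in the CREB3, MIST1, SPDEF and FOXC and BARX lists and to the left among the other progenitor regulators, where Kit, Kitl and Krt14 are filled.

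Since acini, ducts and myoepithelial cells need not hold the same share of each gland, each factor was also set against acinar RNA. The reference was the mean log2(normalized count + 1) of 5 acinar genes, the water channel Aqp5, the ion transporters Slc12a2 and Ano1, the claudin Cldn10 and the peroxidase Lpo. It stood at 13.01, 13.07 and 12.85 in WT and 13.08, 13.58 and 13.25 in DKO, a difference of 0.33 (two-sided exact permutation p = 0.1, the smallest that 3 against 3 allows). Of the 5 genes, Aqp5 was called higher (log2 fold change 0.54, DESeq2 adjusted p = 0.0165), and 0 were called lower. Slc12a2, by far the most abundant of the 5, went the other way, at -0.08 (DESeq2 adjusted p = 0.853). Ano1, Cldn10 and Lpo had 0.39, 0.32 and 0.54 (DESeq2 adjusted p = 0.312, 0.183 and 0.0612). In the same libraries the granular duct genes Egf, Klk1b3, Klk1b21 and Klk1b24 fell, with log2 fold changes of -1.17 to -0.69.

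Relative to that reference, Creb3l1 was 0.26 higher in the libraries labelled DKO on the log2 scale and Barx2 0.14 higher, and both groups overlapped (exact permutation p = 0.2 and 0.3). Etv1 and Spdef differed by 0.08 and -0.07 (exact permutation p = 0.8 and 0.6). Sox10 lay lower in every library labelled DKO, with log2 ratios of -2.88, -2.78 and -2.61 in WT against -2.94, -3.34 and -3.03, a difference of -0.35 at the smallest p of 0.1. The log2 fold change of Sox10 itself was -0.02, so nearly all of that difference is the rise of the reference. Sox9 differed by -0.35, Foxc1 by -0.18 and Bhlha15 by -0.16, all with overlap (exact permutation p = 0.3, 0.3 and 0.4). Sox2 differed by -0.42 (p = 0.9 by the exact test). Each difference is that of the factor less the same 0.33 rise of the reference, so the 9 are not separate tests. They also depended on the reference chosen. With the summed counts of the 5 genes in its place they were 0.45 for Creb3l1, 0.33 for Barx2, 0.27 for Etv1, 0.12 for Spdef, 0.03 for Bhlha15, 0.01 for Foxc1, -0.16 for Sox10, -0.16 for Sox9 and -0.23 for Sox2, so the signs of Spdef, Bhlha15 and Foxc1 turned. Without Slc12a2 in the mean log2 reference, Creb3l1 differed by 0.15 and Barx2 by 0.04, and the sign of Etv1 turned, to -0.03. None of the p-values of these 9 ratios could reach 0.05 with 3 libraries a group, and adjustment over the 9 would only raise them.

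Levels can be compared between factors only per length, here as counts per kilobase of exon per 1e6 TMM-scaled reads. In WT the order of means was Bhlha15 at 64.4, Creb3l1 at 30.2, Spdef at 15.4, Sox10 at 14.5, Barx2 at 13.1, Foxc1 at 11.0, Sox9 at 8.43, Etv1 at 7.32 and Sox2 at 0.185. Spdef and Sox10, Sox10 and Barx2, and Sox9 and Etv1 overlapped as neighbours in this order, while the other neighbours did not. In DKO, Bhlha15 stood at 72.4 ± 0.227, Creb3l1 at 45.2 ± 2.55, Spdef at 18.6 ± 1.82 and Barx2 at 18.3 ± 1.26 (SD, n = 3). Barx2 thus moved from just under Sox10 to clear of it, since Sox10 stayed at 14.4 ± 0.536 in DKO. The comparison between groups depended on the scaling. Per 1e6 counts other than those of Spt1, Bhlha15 stood at 109.6 in WT and 108.8 in DKO, Foxc1 at 18.8 and 18.4, Sox10 at 24.7 and 21.6, Creb3l1 at 51.3 and 67.8 and Barx2 at 22.4 and 27.4. The level of Etv1 is a low estimate, because the exons of all its transcripts together cover 13296 bases, more than one transcript holds.

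**Figure D5:**
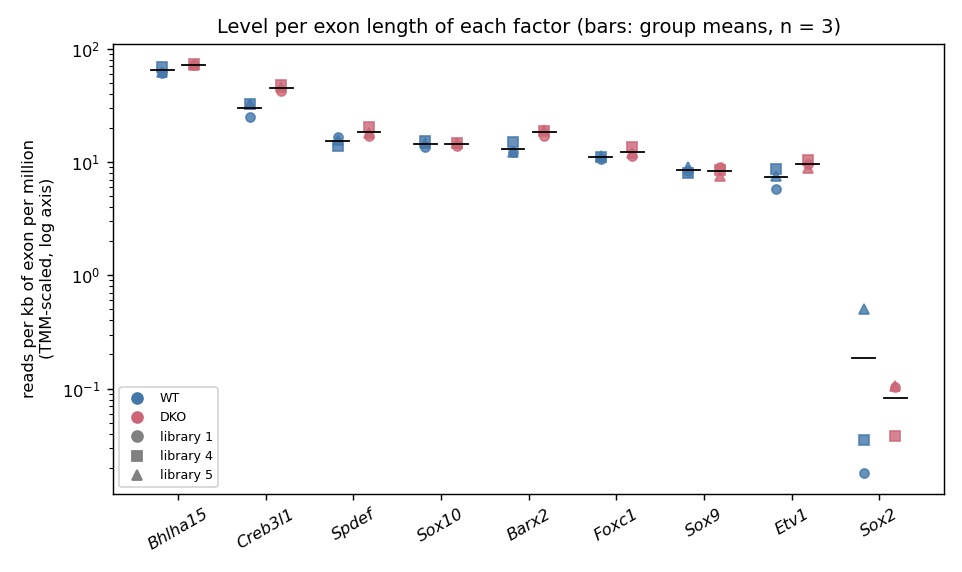
Level of each factor per exon length (vertical log axis, counts per kilobase of exon per 1e6 TMM-scaled reads) in each library labelled WT (blue) and DKO (red), with the library number given by the symbol and group means as bars, ordered by the WT mean. Bhlha15 leads at 64.4 in WT and 72.4 in DKO (109.6 and 108.8 without Spt1 in the totals), 7 factors follow between 7.32 and 45.2, and Sox2 lies far below the rest.

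For 8 of the factors, the rows whose log2 normalized counts ran most closely with them over the 6 libraries were looked up among 11488 other rows with a mean of at least 50. With so few libraries many rows run closely, and the points share the difference between the groups, so this is a description only. Bhlha15 ran closest with Tbc1d16 and Tmem201, Creb3l1 with Peo1 and Azgp1, Barx2 with Cds1 and Fastk, Spdef with Eif1ad and Fahd1, Etv1 with Wwc2 and Vwa8, Foxc1 with Necap1 and Apoa1bp, Sox9 with Whsc1 and Ept1, and Sox10 with Gm26982 and Nr2c1. Azgp1, a secreted zinc-binding glycoprotein, was itself called, rising from a mean of 107 to one of 289 normalized counts (DESeq2 adjusted p = 3.85e-08), and so was Tbc1d16 (log2 fold change 0.54, DESeq2 adjusted p = 0.0142). The number of rows at a Pearson r of at least 0.95 was 161 for Barx2, 156 for Foxc1, 93 for Bhlha15 and 78 for Creb3l1 but 10 for Sox9 and 7 for Sox10.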

How the data were processed

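RNA of 6 submandibular glands was sequenced by the authors on a HiSeq2500 from unstranded Nextera XT libraries. The submitters' processing notes name STAR 2.5.2a, DESeq2, edgeR and limma and list GRCh38, GRCm38 and mm10, with no role for any of them. The raw counts per gene symbol that the authors deposited were used here, with their filtered version as an alternative. Their table of normalized values was not used here. Rows with at least 10 counts in all were tested in R 4.3.3 with DESeq2 1.42.0, the test that the study names (Wald test, two-sided, median-of-ratios size factors, unshrunken log2 fold changes, Benjamini-Hochberg over all rows, threshold 0.05). An adjusted p was not given for 2556 rows. Alternatives were edgeR 4.0.16 (quasi-likelihood with TMM), limma-voom 3.58.1, DESeq2 scaled by TMM or by total counts, with every row kept, with 10 or more counts required in 3 libraries, with a block for the replicate number, and without each library in turn. The fit without WT 5 and DKO 1 was added after the data were seen. The scripts were tested on simulated data.

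Size factors ranged from 0.867 to 1.12. Libraries of one group differed by 16.8 to 43.4 chi-square per degree of freedom, so each counted as 1 replicate, and p-values measure the spread between these glands. Intervals given as 95% are the fold change ± its Wald limits. Exon lengths and positions are those of GENCODE M21 on GRCm38 by symbol. The 9 factors, the lists and the cell type markers were chosen with earlier results of these data known, so no list is independent evidence of a direction. The genes named are the 9 factors, the called genes of each list or else its most abundant ones (up to 4), the markers and the rows most like each factor. Atp2c2, Etv4, Etv5, Trp63, Ascl3, Krt5 and the weakly counted genes were named after their values were seen. Levels are counts per kilobase of exon per 1e6 TMM-scaled reads. Some marker genes are not reported here.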

Additional observations from a re-analysis of the deposited data

How the results depend on the processing

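The number of the 9 factors called higher was 2 with DESeq2, 0 with edgeR, 0 with limma-voom, 1 with total counts as size factors, 1 with the replicate block, 1 without WT 5 and DKO 1, and 1 to 3 when 1 library was left out. Over all rows, 189 were called higher and 350 lower. These became 5 and 5 with edgeR, 3 and 4 with limma-voom, 62 and 1407 with total counts as size factors, which shifted the median of all rows by -0.23, 79 and 101 without WT 5 and DKO 1, and 56 to 306 and 88 to 573 when 1 library was left out. With the replicate block 209 were called lower. The deviations of same-numbered libraries from their group means correlated at -0.13, -0.02 and -0.26 over 11489 rows, and no library correlated best with its own number. Within a group these deviations cancel, so with so few libraries this check cannot decide whether the numbers pair them. With total counts the median log2 fold change was -0.21 for the SOX list, -0.074 for the CREB3 list, 0.17 for the MIST1 list, 0.34 for the SPDEF list, -0.052 for the PEA3 list, -0.16 for the other ETS factors, -0.085 for the FOXC and BARX list and -0.24 for the other progenitor regulators. When 1 library was left out these medians ran from -0.039 to 0.24 for the SOX list, 0.18 to 0.30 for CREB3, 0.16 to 0.34 for PEA3, 0.014 to 0.16 for the other ETS factors and -0.13 to 0.046 for the progenitor regulators. Without WT 5 and DKO 1 they were 0.23 for the SOX list, 0.12 for the other ETS factors and -0.071 for the progenitor regulators. The cause of these changes was not tested. With the replicate block Barx2 was the factor that lost its call (log2 fold change 0.48, DESeq2 adjusted p = 0.0595), and 1 other progenitor regulator and 1 gene of the MIST1 list were called. Creb3l1 was called in 13 of 15 alternatives, Barx2 in 6, Etv1 in 1 and the other factors in 0. Sox2 gave no value with the filter of at least 10 counts in 3 libraries. The depth limited the test of Sox2, at 1 to 31 counts per library.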

Other observations

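Promoters of the factors were searched for 3 motifs on both strands, in windows from 250 bases before to 50 bases after the start of each gene in RefSeq on GRCm38.p6. The table held 6 promoters of 5 of the factors, Sox2, Bhlha15, Spdef, Etv1 and Foxc1. TGACGTGG, a form of the element bound by factors of the CREB3 family, TGACGTCA, the cyclic AMP response element, and CATATG, an E-box of the kind bound by Bhlha15, were each found in 0 of the 6, and in 0.676%, 1.79% and 3.91% of 32851 promoters. This says only that these letters are not in those windows.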
